A study of Mus musculus with 8 samples.

Results

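The NRF2 antioxidant response genes were described in the livers of female mice given dihydrotestosterone (DHT), a potent androgen, on a western diet (WD). The 10 genes were chosen by name as the core of this pathway, with no measured value in the rule (Nfe2l2, Keap1, Gclc, Gclm, Nqo1, Hmox1, Txnrd1, Srxn1, Prdx1 and Cat), and all 10 were among the 14317 mouse genes of the table and passed the filter on low values. Whole-liver RNA was sequenced from 4 mice of the Con-Veh group and 4 of the Con-DHT group, each mouse giving 1 library. The labels call all 8 mice WT. Con-DHT mice carried a 10 mm silastic pellet of DHT and Con-Veh mice an empty one, implanted at 7 weeks of age and renewed every 4 weeks, and both groups were on the WD for 8.5 weeks. The comparison asks how androgen excess changes the antioxidant transcripts of the female liver on this diet.

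NRF2, the protein of Nfe2l2, is the transcription factor that cells use against oxidants and electrophiles. KEAP1 holds it in the cytoplasm and delivers it to the proteasome until reactive molecules modify KEAP1, whereupon NRF2 reaches the nucleus, pairs with a small MAF protein and binds antioxidant response elements. Its targets make glutathione, reduce quinones, break down heme and recycle thioredoxin and peroxiredoxin, and the hepatocyte, which handles drugs and oxidises fat, uses all of these. NRF2 is controlled largely at the protein level, so its transcript is not a reading of its activity, and no protein was measured in these libraries.

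The antioxidant response element has the core TGACNNNGC, where N is any base. Both strands of the RefSeq promoter windows (GRCm38.p6, from 250 bases before a RefSeq start of a gene to 50 after it) were searched for it. The promoter table held windows for 8 of the 10 genes, and 5 of these 8 genes had the core in a window. Of all 32851 windows, 12.4% held it, and 14.0% of the 27025 genes with a window. The 5 sites are shown because they are the sequence that the pathway's factor is known to read, each printed 5′ to 3′ as 29 bases with the core in capitals.
Nfe2l2, chr2:75704885-75704913, minus strand: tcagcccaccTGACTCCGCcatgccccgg
Gclm, chr3:122245413-122245441, minus strand: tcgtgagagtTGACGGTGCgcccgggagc
Prdx1, chr4:116685456-116685484, minus strand: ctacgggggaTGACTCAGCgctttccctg
Txnrd1, chr10:82859104-82859132, minus strand: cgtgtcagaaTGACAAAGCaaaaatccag
Srxn1, chr2:152105542-152105570, minus strand: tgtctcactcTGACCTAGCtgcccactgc
In the direction of the gene, the core began 240 bases before the RefSeq start of Nfe2l2 and 134 before that of Gclm. It began 133 before that of Prdx1 and 92 before that of Txnrd1, and in Srxn1 at transcribed base 29. The printed Nfe2l2 site is sense to its gene, and those of Gclm, Prdx1, Txnrd1 and Srxn1 are antisense. The RefSeq start of Txnrd1 lay downstream of the gene's first annotated base (chr10:82833951, plus strand), so its site was inside the gene. The windows of Keap1, Nqo1 and Cat did not hold these letters, and Gclc and Hmox1 had no window. A match describes letters and not binding, which was not measured here.

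Values are normalized read counts, the reads of a gene divided by 1 size factor per library, and libraries held between 13123962 and 17815944 reads on mouse genes. A gene was said to rise or fall when its adjusted p was at most 0.05 in limma's moderated test on log2(value + 1), with Benjamini-Hochberg adjustment over all 14312 genes tested. Of the 10 genes, Nfe2l2 and Hmox1 fell in Con-DHT livers, none rose, and 8 did not pass the test. Over all genes tested, 7.21% passed in either direction, 2.61% fell and 4.60% rose. The count tests edgeR and DESeq2 also called Nfe2l2 and Hmox1 and no other of the 10, beside 7.15% and 11.0% of all genes. The median log2 fold change of the 10 genes was -0.18 and that of all genes tested was -0.0081, and 8 of the 10 lay below 0. This count depended on the scale. It was 6 of the 10 when libraries were scaled without the Mup genes (median -0.085, that of all genes 0.090). It was 5 when they were scaled by the spike-ins (median 0.024, that of all genes 0.20). Such a change of scale shifts all genes together. In 2 of the 10 genes the groups did not overlap, beside 15.1% of all genes, and 3 of the 10 had an unadjusted p of at most 0.05, beside 23.2% of all genes.

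**Figure D1:**
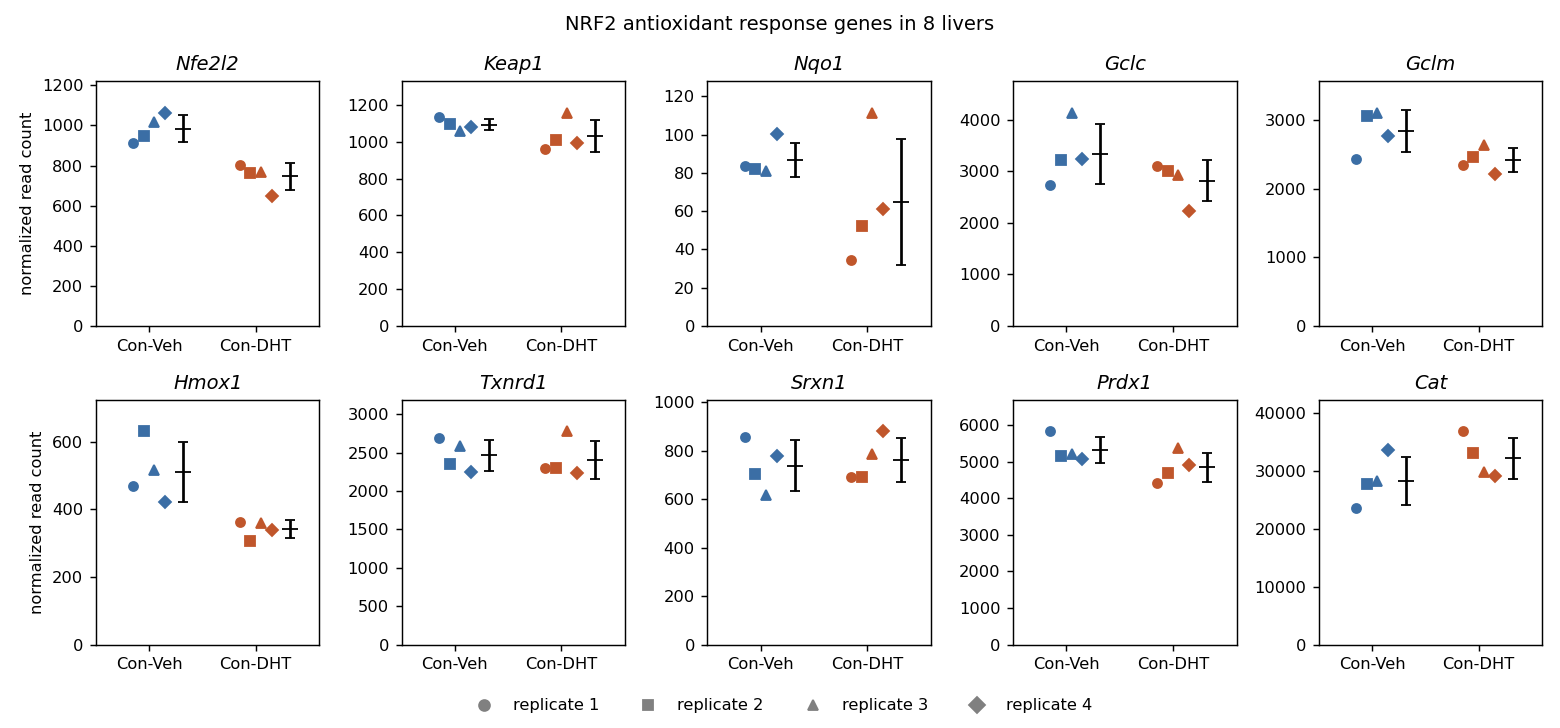
Normalized read counts of the 10 genes in each liver, with 1 panel per gene, 1 point per mouse, the replicate number as the shape, and the group mean with its SD as the black bar, all axes starting at 0. The groups did not overlap for Nfe2l2 and Hmox1 and overlapped in the remaining 8 panels.

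Nfe2l2 (ENSMUSG00000015839, chromosome 2) encodes the factor itself. Its normalized read counts were 911, 945, 1016 and 1062 in Con-Veh replicates 1 to 4 and 804, 765, 765 and 647 in Con-DHT replicates 1 to 4. All 4 Con-DHT livers lay below the lowest Con-Veh liver, and Con-DHT 4 was the lowest of the 8. The means were 984 ± 68.1 and 745 ± 68.3 (SD, n = 4 per group), a log2 fold change of -0.40 (SE 0.086, 95% confidence interval -0.59 to -0.21), or 0.757-fold, with limma's adjusted p = 0.021. The exact two-sided permutation test gave p = 0.029, the smallest that the 70 arrangements of 4 against 4 allow.

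Keap1 (ENSMUSG00000003308, chromosome 9) encodes the adaptor that marks NRF2 for degradation. It read 1131, 1095, 1058 and 1080 in Con-Veh livers and 958, 1006, 1155 and 995 in Con-DHT livers. In 3 of the 4 Con-DHT livers it lay below all Con-Veh livers, while Con-DHT 3 was the highest of the 8, so that the groups overlapped. Its log2 fold change was -0.09 (95% confidence interval -0.25 to 0.08, limma's adjusted p = 0.52), and with the spike-ins as the scale it turned to 0.12.

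Hmox1 (ENSMUSG00000005413, chromosome 8) encodes heme oxygenase 1, the inducible enzyme that opens the heme ring to biliverdin, iron and carbon monoxide. Its values were 469, 630, 517 and 423 in Con-Veh livers and 363, 305, 359 and 340 in Con-DHT livers. The groups did not overlap, and the Con-Veh livers were spread more widely, with an SD of 88.9 around a mean of 510 against 26.6 around 342. The log2 fold change was -0.56 (SE 0.12, 95% confidence interval -0.83 to -0.29), or 0.677-fold, with limma's adjusted p = 0.021 and an exact permutation p of 0.029.

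The calls of both genes depended on the scale and on single livers. Against the ERCC spike-ins, synthetic RNAs added before library preparation, Nfe2l2 stood at -0.20 (limma's adjusted p = 0.91). Hmox1 stood at -0.36 (limma's adjusted p = 0.86), and the median of all genes at 0.20. On this scale the SE was 0.30 for both genes, against 0.086 for Nfe2l2 and 0.12 for Hmox1 in the main comparison. The spike-in size factors ran from 0.675 to 1.49 within Con-Veh livers, a spread that every gene shared. Without Con-Veh 3 neither gene passed the test (limma's adjusted p = 0.053 and 0.051). Their log2 fold changes were then -0.39 and -0.55, and the calls over all genes went from 1032 to 824. Without Con-Veh 4 Nfe2l2 did not pass (0.065), and without Con-DHT 2 Hmox1 did not (0.062). Both genes stayed below 0 in every setting tried.

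**Figure D2:**
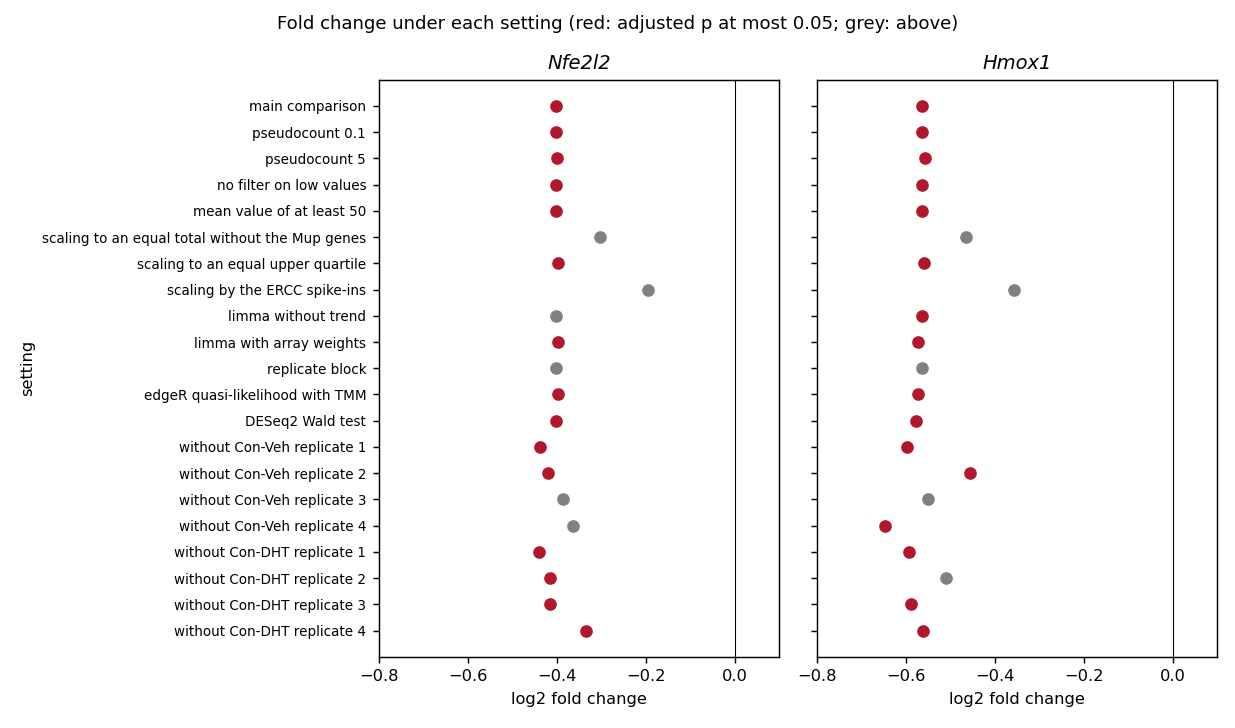
The log2 fold change (Con-DHT minus Con-Veh) of Nfe2l2 and Hmox1 on the horizontal axis under the main comparison and each alternative setting, red where the adjusted p was at most 0.05 and grey where it was above. All points lie below 0, and the points nearest to 0 are those scaled by the ERCC spike-ins, at -0.20 and -0.36.

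Markers of Kupffer cells and of sinusoidal endothelial cells were, as sums, lower in Con-DHT livers as well. Over all genes tested, 2.61% fell. All 10 Kupffer cell and macrophage markers had a log2 fold change below 0 (median -0.54), and 5 fell: Clec4f, Cd5l, Vsig4, Cd68 and C1qa. Their summed normalized read counts ran from 7805 to 9644 in Con-Veh livers and from 5260 to 7207 in Con-DHT livers, without overlap, and no marker was at 0 in any library. Cd5l, a scavenger-receptor protein secreted by macrophages, had the largest change of the 5, with a log2 fold change of -0.86 (95% confidence interval -1.16 to -0.57, limma's adjusted p = 0.0045). Of 7 sinusoidal endothelial markers, 6 were below 0 and 2, Stab2 and Lyve1, fell, and their sums of 3666 to 4216 and 2793 to 3316 did not overlap either. Against the spike-ins neither Stab2 nor any of the 5 Kupffer cell markers passed. Of the 8 fits that left out 1 liver, Stab2 passed in 6 (not without Con-Veh 4 or Con-DHT 1) and Clec4f and Lyve1 in 2 each, and Lyve1 did not pass in edgeR (adjusted p = 0.052). Kupffer cells, which clear aged red cells, are a known site of Hmox1, and in whole liver fewer cells of a type and less RNA per cell cannot be told apart. The part of these cells in the lower Nfe2l2 and Hmox1 was not tested. The study stained liver sections of mice on this diet for a macrophage protein and reported no change with DHT. No hepatocyte, stellate cell, cholangiocyte or erythroid marker passed the test, and the sums of each of these lists overlapped between the groups. The erythroid list nevertheless had a median log2 fold change of -0.66, with 4 of its 5 genes below 0 and 2 at an unadjusted p of at most 0.05 in limma. All 8 hepatocyte markers had values above 0 in every library, with 7 of 8 log2 fold changes below 0 and a median of -0.14. The stellate cell and cholangiocyte lists had medians above 0, at 0.052 and 0.14. Of 6 neutrophil markers, 1 was in the table and it did not pass.

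The 2 subunits of glutamate-cysteine ligase, the first and limiting enzyme of glutathione synthesis, were lower on average in Con-DHT livers without passing the test. Gclc (ENSMUSG00000032350, chromosome 9), the catalytic subunit, read 2726, 3220, 4131 and 3242 in Con-Veh livers and 3104, 3005, 2921 and 2236 in Con-DHT livers. Con-Veh 3 was the highest and Con-DHT 4 the lowest, and the other 6 were intermingled. This gave a log2 fold change of -0.24 (95% confidence interval -0.54 to 0.07, limma's adjusted p = 0.34).

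Gclm (ENSMUSG00000028124, chromosome 3), the modifier subunit that makes the catalytic one more efficient, read 2434, 3066, 3104 and 2766 in Con-Veh livers and 2353, 2460, 2631 and 2213 in Con-DHT livers. Con-Veh 1 alone lay within the range of the Con-DHT livers. Its interval, -0.44 to -0.03 around a log2 fold change of -0.23, lay below 0 (limma, unadjusted p = 0.032), but the adjusted p was 0.17. Against the spike-ins the log2 fold changes of Gclc and Gclm were -0.030 and -0.025, and in libraries scaled without the Mup genes they were -0.14 and -0.13.

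Nqo1 (ENSMUSG00000003849, chromosome 8), which reduces quinones by 2 electrons and is a standard reporter of NRF2 activity, had the widest spread of the 10 in Con-DHT livers relative to its mean, an SD of 33.0 around 64.7. Con-Veh livers read 83.5, 82.0, 80.9 and 100, and Con-DHT livers read 34.3, 52.3, 111 and 60.9. In 3 of the Con-DHT livers Nqo1 lay below every Con-Veh liver, and in Con-DHT 3 it was the highest of all 8. This left a log2 fold change of -0.54 with an interval of -1.19 to 0.12 (limma's adjusted p = 0.31). The size depended on single livers in both directions: without Con-DHT 3 it was -0.84 and passed the test (limma's adjusted p = 0.049), and without Con-DHT 1 it was -0.28 (adjusted p = 0.58). With the spike-ins as the scale it was -0.34.

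**Figure D3:**
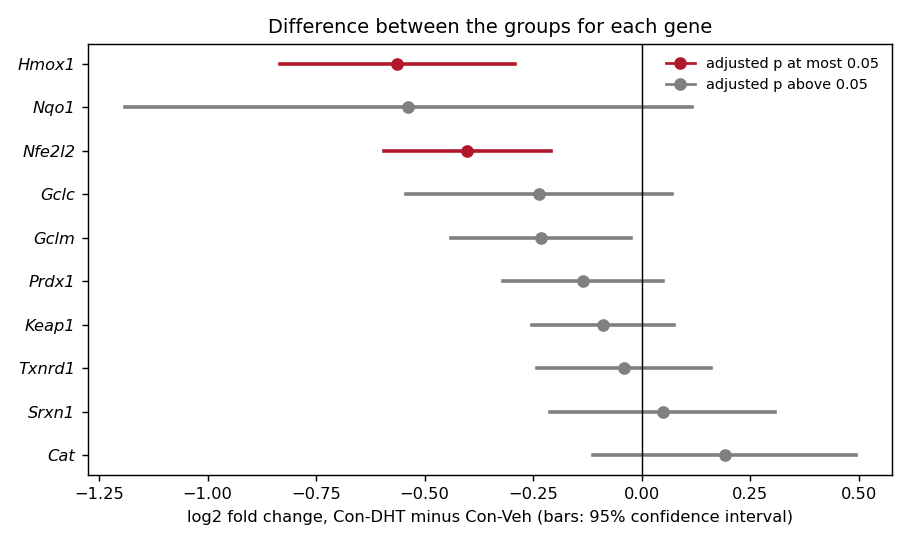
The log2 fold change (Con-DHT minus Con-Veh) of each gene with its 95% confidence interval, red where the adjusted p was at most 0.05. Nfe2l2 and Hmox1 are red, Nqo1 has the widest interval (-1.19 to 0.12), and Cat lies farthest to the right at 0.19.

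The thioredoxin and peroxiredoxin genes showed small differences. Txnrd1 (ENSMUSG00000020250, chromosome 10), the cytosolic reductase that recharges thioredoxin from NADPH, read 2693, 2352, 2584 and 2256 in Con-Veh livers and 2301, 2298, 2778 and 2243 in Con-DHT livers. The groups covered almost the same range, and the log2 fold change was -0.04 (95% confidence interval -0.24 to 0.16, limma's adjusted p = 0.83), turning to 0.17 against the spike-ins.

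Srxn1 (ENSMUSG00000032802, chromosome 2), the sulfiredoxin that restores over-oxidised peroxiredoxins, read 859, 703, 616 and 777 in Con-Veh livers and 692, 690, 788 and 879 in Con-DHT livers. Its log2 fold change was 0.05 (95% confidence interval -0.21 to 0.31, limma's adjusted p = 0.85), and its sign changed when Con-Veh 3 or Con-DHT 4 was left out.

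Prdx1 (ENSMUSG00000028691, chromosome 4), an abundant peroxiredoxin that destroys hydrogen peroxide, read 5825, 5151, 5223 and 5063 in Con-Veh livers and 4416, 4687, 5363 and 4917 in Con-DHT livers. Con-DHT 3 was again the highest of its group and lay within the Con-Veh range. Its log2 fold change was -0.13 (95% confidence interval -0.32 to 0.05, limma's adjusted p = 0.37), turning to 0.07 against the spike-ins. Prdx1 has processed copies elsewhere in the genome, and only uniquely mapped reads were counted, so its level is less certain than those of the other genes.

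Cat (ENSMUSG00000027187, chromosome 2), the peroxisomal catalase, had, like Srxn1, a log2 fold change above 0. It read 23611, 27675, 28276 and 33666 in Con-Veh livers and 36839, 33134, 29787 and 29082 in Con-DHT livers. Con-Veh 4 lay within the Con-DHT range, and the remaining Con-Veh livers lay below every Con-DHT liver. Its log2 fold change was 0.19 (95% confidence interval -0.11 to 0.49, limma's adjusted p = 0.44). It was 0.40 against the spike-ins, 0.11 without Con-Veh 1 and 0.12 without Con-DHT 1, and passed in none of these.

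**Figure D4:**
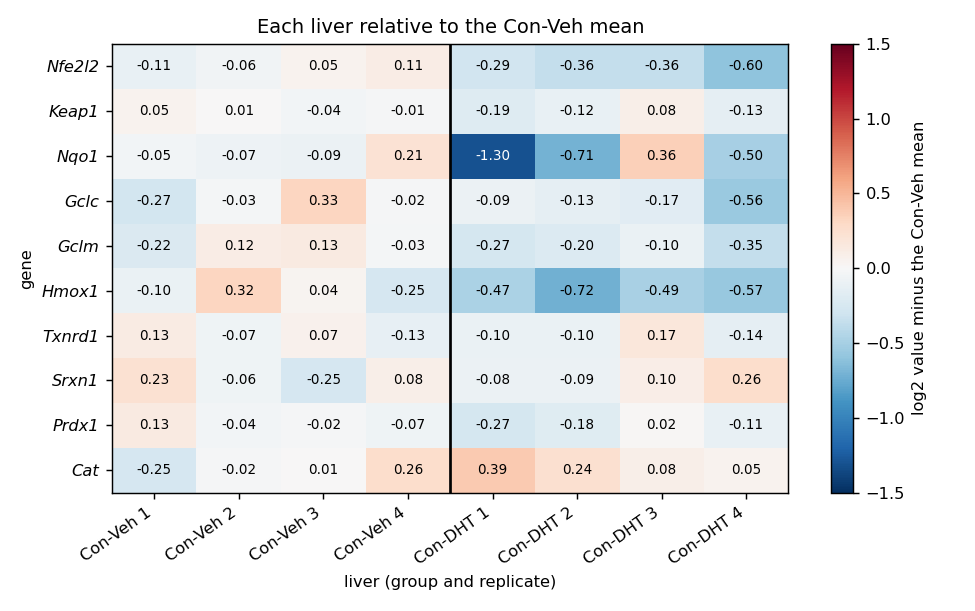
Each gene's log2(value + 1) in each liver minus the mean of the Con-Veh livers, with livers as columns and genes as rows, blue below and red above that mean. The Nfe2l2 and Hmox1 rows are blue in all 4 Con-DHT livers, and in the Con-DHT 3 column Nqo1 stands above the Con-Veh mean.

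The livers of 1 group did not stand in 1 order over the genes. Con-DHT 3 was the highest of its group for 5 of the 10 genes and the lowest for none, and Con-DHT 4 was the lowest for 5. Con-Veh 1 was the highest of its group for 4 genes and the lowest for 4.

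Per kilobase of exon, which allows genes to be compared, Cat had the highest level in Con-Veh livers, 10833 normalized reads per kb ± 1581 (SD, n = 4). Prdx1 followed at 1747, Gclc at 884, Gclm at 452 and Txnrd1 at 349 normalized reads per kb. Hmox1 stood at 291, Srxn1 at 262, Nfe2l2 at 259 and Keap1 at 233, and Nqo1, at 55.8, was the lowest of the 10. From Txnrd1 down to Keap1 each gene's range overlapped that of the next in the order. All genes were read in the same livers, so this overlap is not a test of whether neighbours differ. The steps between the genes above Txnrd1, from Gclm to Txnrd1 and from Keap1 to Nqo1 were free of overlap. In Con-DHT livers Nfe2l2 and Hmox1 stood at 196 and 195 normalized reads per kb, and Keap1 at 219.

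The levels of the other 9 genes were compared with that of Nfe2l2 over the 8 livers on the log2 scale. Pearson's r was 0.78 for Gclm (Spearman's rho 0.74), 0.77 for Gclc (rho 0.81) and 0.72 for Hmox1 (rho 0.81), with exact permutation p of 0.026, 0.024 and 0.045 for r and 0.046, 0.022 and 0.022 for rho. After Benjamini-Hochberg adjustment over the 9 relations the p for r were 0.12, 0.12 and 0.13, and none of the 9 passed. Without Con-DHT 4 and Con-Veh 4, the livers farthest from the median of Nfe2l2, r was 0.73 for Gclm, 0.63 for Gclc and 0.89 for Hmox1. These values hold the difference between the groups. On deviations from the group means, r was 0.80 for Gclc (adjusted exact permutation p = 0.20), 0.80 for Cat (adjusted 0.16), 0.48 for Gclm and -0.19 for Hmox1, and none of the 9 passed. For Hmox1 the pooled value thus came from the difference between the groups and not from the order of the livers within them.

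The genes outside the 10 whose log2 values lay closest to those of Nfe2l2 over the 8 libraries, among 10715 genes with a mean of at least 50, were Afm and Man2b1, each with a Pearson r of 0.98, and Tmprss6 with 0.974. These genes were picked by an r over both groups, which holds the group difference of Nfe2l2. Their lower values in Con-DHT livers therefore follow from the choice and are not separate results. Afm fell, from a mean of 3673 to 2404 (log2 fold change -0.61, limma's adjusted p = 0.0053). Afm passed without any 1 liver but not against the spike-ins (adjusted p = 0.81). Man2b1 was at -0.28 (adjusted p = 0.042), and it passed in none of the 8 fits that left out 1 liver (adjusted p = 0.061 to 0.11) and not in edgeR (0.058). Tmprss6 had a log2 fold change of -0.24 that did not pass (adjusted p = 0.097).

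Other genes of the pathway and of processes beside it were taken as 9 lists, called the pathway lists here. Peroxisome biogenesis and the oxidases that produce hydrogen peroxide are such processes, and their lists held 1 and 3 calls. The 9 lists held 128 genes, of which 124 were tested. Of these, 9 passed the test, 7 higher and 2 lower in Con-DHT livers, a share of 7.26% beside 7.21% of all genes. Their median log2 fold change was 0.030. This share was close to that of all genes, and 6 of the 9 lists held 1 call each.

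Among 15 partners and regulators of NRF2, Gsk3b alone passed. It encodes a kinase that can mark NRF2 for degradation independently of KEAP1, and it read 523 to 586 in Con-Veh livers and 643 to 760 in Con-DHT livers, without overlap (log2 fold change 0.32, limma's adjusted p = 0.031). It passed in 1 of the 8 fits that left out 1 liver, and neither against the spike-ins (adjusted p = 0.58) nor in limma without a trend (0.064). The median of this list was 0.089.

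Of 18 genes for glutathione synthesis, recycling and peroxidases, Slc7a11 alone passed. It encodes the cystine importer that feeds glutathione synthesis and is a known NRF2 target. The values were low, 13.2, 47.3, 32.9 and 36.6 in Con-Veh livers and 153, 80.3, 67.4 and 88.1 in Con-DHT livers, without overlap. Its log2 fold change was 1.61 (95% confidence interval 0.78 to 2.45, limma's adjusted p = 0.030), opposite in sign to those of Gclc and Gclm. Slc7a11 passed in 10 of 12 alternatives, the spike-ins among them, and in 3 of the 8 fits that left out 1 liver. It did not pass in limma without a trend (adjusted p = 0.057) or in limma with the replicate number as a block (0.080). The highest log2 fold change of the list, 2.34, belonged to Gpx2, named after its values were seen, which ran from 0.87 to 15.4 in Con-Veh and from 0.98 to 39.8 in Con-DHT livers and did not pass (adjusted p = 0.21).

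In the thioredoxin and peroxiredoxin list of 16 genes, Prdx4 fell and no other passed. It encodes the peroxiredoxin of the endoplasmic reticulum and read 820, 831, 813 and 798 in Con-Veh livers against 581, 587, 529 and 671 in Con-DHT livers. The Con-Veh livers were close together and the groups lay well apart, with a log2 fold change of -0.47 (95% confidence interval -0.64 to -0.29, limma's adjusted p = 0.0073). Against the spike-ins it was -0.26 and did not pass (adjusted p = 0.90).

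Of 9 genes for NADPH supply, G6pdx rose, and it did so in all 12 alternatives. It encodes glucose-6-phosphate dehydrogenase, the entry to the pentose phosphate pathway. Its values were 108, 113, 109 and 91.4 in Con-Veh livers and 198, 218, 176 and 209 in Con-DHT livers (log2 fold change 0.92, 95% confidence interval 0.67 to 1.17, limma's adjusted p = 0.0013).

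Of 24 detoxification and export targets, Gstp1 alone passed. This pi-class glutathione transferase read 2053, 1837, 2083 and 2125 in Con-Veh livers and 10047, 5584, 5283 and 8931 in Con-DHT livers. Every Con-DHT liver was above every Con-Veh liver, and the log2 fold change was 1.83 (95% confidence interval 1.40 to 2.25, limma's adjusted p = 0.00060). The mouse has close copies of Gstp1, and reads that fit several copies were not counted, so the level is uncertain.

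None of the 7 heme and iron targets passed, and their median, -0.23, was the lowest of the 9 lists. Slc40a1, the iron exporter ferroportin, had the smallest p of this list. It read 2083 to 2988 in Con-Veh livers and 1481 to 2281 in Con-DHT livers, which overlapped (log2 fold change -0.47, limma's adjusted p = 0.095). It passed in DESeq2 (adjusted p = 0.044) and, in limma, without Con-DHT 3 (adjusted p = 0.046). Like Hmox1, it is known to be expressed in Kupffer cells, whose markers were lower in the same livers, and the part of these cells was not tested.

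None of the 4 superoxide dismutase genes passed. Sod1, the cytosolic enzyme, had the smallest p of them, with a log2 fold change of -0.09 (95% confidence interval -0.26 to 0.09, limma's adjusted p = 0.57) that turned to 0.12 against the spike-ins.

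Catalase works in the peroxisome, and of 19 genes listed under peroxisome biogenesis 1 passed, Abcd3. It encodes a transporter of the peroxisomal membrane rather than a biogenesis factor. Abcd3 read 6012 to 7115 in Con-Veh livers and 8097 to 9927 in Con-DHT livers (log2 fold change 0.43, limma's adjusted p = 0.020). It passed in 6 of the 8 fits that left out 1 liver, and not without Con-DHT 1 or Con-DHT 2, and against the spike-ins, at 0.64, it did not pass either (adjusted p = 0.39). The other 18 did not pass, and the median of the list was 0.036.

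The oxidases that produce hydrogen peroxide held the most calls, 3 of 12, with 2 higher and 1 lower. Hao1, the glycolate oxidase of hepatocyte peroxisomes, read 1332, 1283, 1651 and 1362 in Con-Veh livers and 2699, 2319, 2372 and 3105 in Con-DHT livers (log2 fold change 0.90, limma's adjusted p = 0.0013). Aox3, an aldehyde oxidase of the liver, read 3058 to 3754 in Con-Veh and 5068 to 10603 in Con-DHT livers (log2 fold change 1.02, adjusted p = 0.011 in limma). Hao2, a peroxisomal oxidase of longer 2-hydroxy acids, went the other way, with 86.8, 101, 92.8 and 86.2 in Con-Veh livers and 7.85, 11.6, 2.04 and 1.09 in Con-DHT livers. On the log2 scale Hao2 differed by -4.17 (95% confidence interval -5.30 to -3.03, limma's adjusted p = 0.0013), where the added 1 shrinks changes of values this low.

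**Figure D5:**
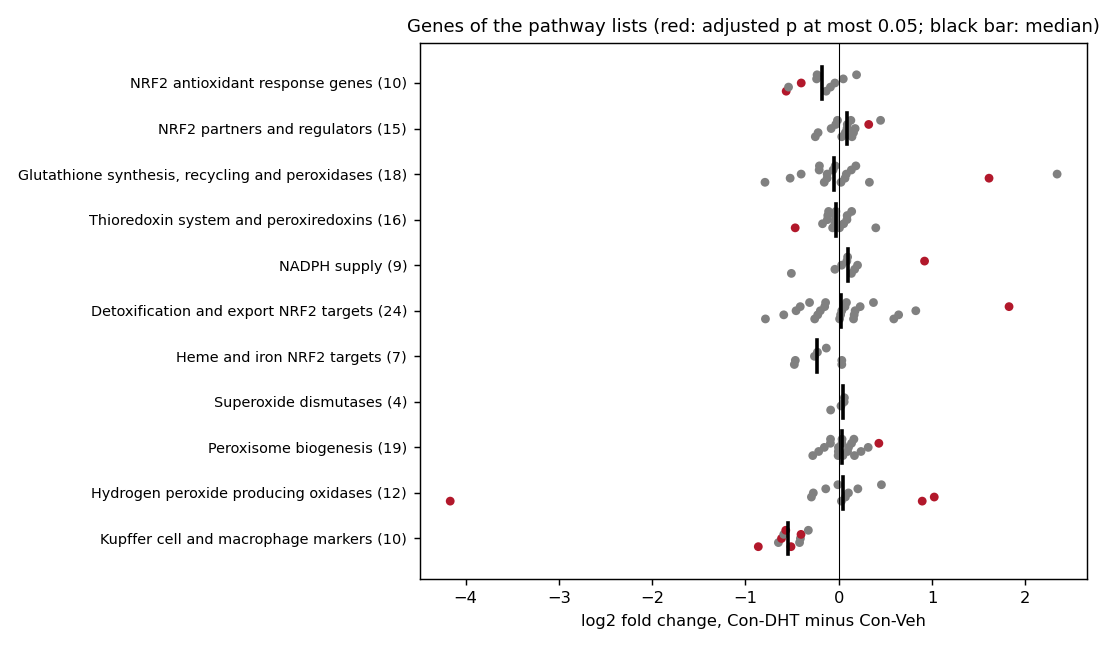
The log2 fold change (Con-DHT minus Con-Veh) of every tested gene of the 10, of the 9 pathway lists and of the Kupffer cell and macrophage markers, with the number of genes in brackets, red where the adjusted p was at most 0.05 and with the median as a black bar. The medians of the pathway lists lie between -0.23 and 0.096, that of the 10 genes at -0.18 and that of the Kupffer cell and macrophage markers at -0.54.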

How the data were processed

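Liver RNA of 4 Con-Veh and 4 Con-DHT mice was analysed, with groups and replicate numbers from the labels. A detail of the mouse line that both groups share is not reported here. Per the study's methods and the submitters' notes, the authors trimmed reads with Trimmomatic, aligned them with STAR (GRCm39 in the notes), counted uniquely mapped exonic reads with featureCounts and used DESeq2. The deposited values are a normalized signal, read counts divided by 1 size factor per library, for 14371 features, 54 of them ERCC spike-ins, with at least 81 reads each over the libraries. Whole reads were recovered for 100% of values (tolerance 0.01 read).

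The main comparison used limma 3.58.1 in R 4.3.3 (trend, log2(value + 1), mean of at least 10, Benjamini-Hochberg, threshold 0.05). Limma called 1032 genes; with the recovered reads, 1024 were called by edgeR 4.0.16 (quasi-likelihood, TMM) and 1569 by DESeq2 1.42.0 (Wald). The fits were tested on simulated data with 2-fold and 4-fold changes. Of the 2-fold changes, limma recovered 72.2%, edgeR 73.2% and DESeq2 75.3%. False calls made up 7.43% of the calls of limma, 7.82% of those of edgeR and 17.6% of those of DESeq2. Smaller changes were not simulated. Alternatives were other pseudocounts, filters, scalings, weights, count tests, a replicate block and leaving out each liver. Symbols and exon lengths came from GENCODE M21 (GRCm38), promoters from RefSeq. The spread between mice sets the p-values, and no 2 libraries of a group agreed within sampling noise (chi-square per degree of freedom 19.1 to 61.2 over 12 pairs).

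The members and lists were chosen with earlier results of these data known. Named genes were the 10 members; in each pathway list the genes past the threshold (at most 6) or, with none, the gene of smallest p; markers past the threshold; and the 3 genes most like Nfe2l2. The genes Ggt1, Gsta1, Aldh3a1 and Dao were listed but not analysed here.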

Additional observations from a re-analysis of the deposited data

Results flagged for a closer look

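Among 62 groups of 4 livers checked (31 genes in both groups), 4 had a liver far from the other 3 by Dixon's test, which chance passes in about 1 in 20 groups. Nqo1 read 100.1 in Con-Veh 4 and 80.9 to 83.5 in the other Con-Veh livers. Txnrd1 read 2778 in Con-DHT 3 and 2243 to 2301 in the other Con-DHT livers. Abcd3, the peroxisomal transporter, read 6012 in Con-Veh 1 and 6985 to 7115 in the other Con-Veh livers. Vsig4, a Kupffer cell marker, read 389 in Con-DHT 1 and 287 to 295 in the other Con-DHT livers.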

How the results depend on the processing

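Nfe2l2 passed the test in 8 of 12 alternatives and Hmox1 in 9 of 12, and both kept their direction in all of them. Of the 10 genes, 0 passed when libraries were set to equal totals leaving out the Mup genes (adjusted p = 0.060 for Nfe2l2 and 0.051 for Hmox1), 0 with scaling by the ERCC spike-ins, 0 with the replicate block and 1 in limma without a trend; leaving out 1 liver gave 0 to 3. Unadjusted, 3 of the 10 had p of at most 0.05 in the main comparison. Over all genes, 1032 calls became 648 when means under 50 were left out, 645 with the spike-ins, 1569 with DESeq2 and 638 to 897 without 1 liver, and the pathway lists' 9 calls became 14 without the Mup genes, 14 with DESeq2 and 7 to 11 without 1 liver. The share of calls that were higher in Con-DHT livers was 63.8%, 83.9% without the Mup genes and 88.5% with the spike-ins, whose median shift of all genes was 0.20, and whose size factors ran from 0.675 to 1.49 within Con-Veh livers. The log2 fold changes of Keap1, Txnrd1 and Sod1 turned to 0.0098, 0.057 and 0.012 without the Mup genes, and those of Keap1, Txnrd1, Prdx1 and Sod1 to 0.12, 0.17, 0.072 and 0.12 with the spike-ins. Without 1 liver, Txnrd1 ran from -0.11 to 0.0015 and Srxn1 from -0.035 to 0.12. Of the 9 relations with Nfe2l2, 7 passed by Pearson's r and 2 by Spearman's rho with the spike-ins, where 1 factor multiplies every gene of a liver, and r turned to 0.61 for Srxn1 and 0.78 for Cat; without the Mup genes r was -0.16 for Keap1, -0.23 for Txnrd1 and -0.14 for Prdx1, and without 1 liver it ran from -0.15 to 0.42 for Txnrd1. The replicate numbers did not pair the livers (correlations of same-numbered deviations -0.19 to -0.0060), and the replicate block called 700 genes, 7 of them in the pathway lists; with it Gsk3b (adjusted p = 0.070) and Abcd3 (0.068) were lost and Slc40a1 passed (0.040). Causes were not tested. With 4 livers per group, the intervals of the 8 genes that did not pass leave changes undecided, for Nqo1 down to 0.438-fold.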
